A study of Macaca mulatta with 12 samples.

Results

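Microglia and brain macrophages are the resident immune cells of the macaque amygdala. Their nuclei were picked from a table of single-nucleus transcript counts by 7 genes of blood-derived and resident immune cells. A nucleus was taken as myeloid when DOCK8, IKZF1, APBB1IP, LCP2, INPP5D, FYB1 and WDFY4 together gave at least 4 UMIs (unique molecular identifiers, 1 per captured transcript). It also had to hold at most 1 UMI of the neuronal gene RBFOX3 and at most 1 UMI of the inhibitory genes GAD1 and GAD2 together. This left 337 of 26400 nuclei, a share of 1.28% (exact 95% interval from 1.14 to 1.42%). Within them, 31 nuclei with at least 2 UMIs of MRC1 and F13A1 were called MRC1/F13A1-positive, 247 with 0 were called negative, and 59 had 1 UMI, of MRC1 in each case. The positive nuclei were 9.20% of the myeloid nuclei (6.34 to 12.8%).

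The nuclei came from amygdala of rhesus macaques (Macaca mulatta), removed by surgery and frozen, and were profiled in droplets with a kit that reads the end of each transcript. The 12 labelled samples formed 1 group, with no treatment, genotype or control group and no age or sex in the labels used here. Their titles number them from 1 to 3 with 4 samples under each number, and the series' design text speaks of 3 samples, so the 12 need not be separate specimens. The counts covered 19708 genes and 151526883 UMIs. Barcodes ended in 1 of 3 suffixes (9201, 8900 and 8299 nuclei), and no label tied a suffix to an animal or sample. The pool therefore counted as 1 sample: no p-value or error over animals can be given. The suffixes, called barcode sets here, served to see whether a direction recurred, and they may be technical. Every interval is exact at the 95% level and covers counting error alone, and transcripts of 1 nucleus are not independent draws, so these intervals are too narrow. Across the sets, 68 barcode sequences occurred in 2 of them. Among the myeloid nuclei 3 had such a sequence, and no sequence was shared by 2 myeloid nuclei.

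Microglia are long-lived macrophages of the brain tissue that survive on signals through the receptor CSF1R and sense purines and the neuronal chemokine fractalkine through P2RY12 and CX3CR1. Macrophages at the borders of the brain, along vessels and in the meninges, are a separate population that carries scavenger receptors such as MRC1, CD163 and LYVE1. Both share the machinery of innate immune cells, among it Fc receptors, complement components and toll-like receptors. RNA from nuclei is rich in unspliced transcripts, so long genes weigh heavily and the levels below are those of nuclear RNA. Levels are given as CPM, the UMIs of a gene scaled to 1000000 UMIs of the same nuclei, and levels of different genes are not set against each other.

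The myeloid nuclei were shallower than the pool of other nuclei. They held 969160 UMIs in all, with a median of 2013 UMIs and 1409 detected genes, against 5075 UMIs and 2457 genes in the 25915 nuclei with fewer than 4 UMIs of the 7 genes. The 9395 nuclei with 0 UMIs of the 7 genes that passed the neuronal exclusions had a median of 1800 UMIs. Nuclei picked by markers as astrocytes, oligodendrocytes and endothelial cells had medians of 1796.5, 1857 and 1762 UMIs. Those picked as precursors, inhibitory and excitatory neurons had 4066, 6128 and 8534 UMIs. The share of myeloid nuclei was 1.29% in the first barcode set, 1.18% in the second and 1.36% in the third, with 119, 105 and 113 nuclei. The exclusion of neuronal genes removed 148 of the 485 nuclei that had at least 4 UMIs of the 7 genes. Of these genes, INPP5D, a lipid phosphatase of immune signalling, gave 1046 of the 3176 rule UMIs and had a UMI in 90.5% of the myeloid nuclei. APBB1IP, an adaptor of integrin activation, was seen in 80.1%, DOCK8, a regulator of the actin skeleton, in 71.5% and IKZF1, a transcription factor of blood cells, in 43.3%. At least 3 of the 7 genes were present in 301 nuclei (89.3%). These values follow from the choice and are given as a description.

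P2RY12, CX3CR1, CSF1R and SLCO2B1, which the choice did not use, summed to 366 CPM in the 35 nuclei with 3 UMIs of the 7 genes and to 688 CPM in the 27 nuclei with 4 UMIs. A UMI of these 4 markers was present in 54.3 and 66.7% of them, and in 6.16% of the 9395 nuclei with 0 UMIs that passed the neuronal exclusions. Along the second limit, DAB2, CD163, LYVE1 and COLEC12 summed to 139 CPM in nuclei with 0 UMIs of MRC1 and F13A1, 198 CPM with 1 UMI and 301 CPM with 2 UMIs. Of the 14 marker UMIs in the 15 nuclei with 2 UMIs, 6 of DAB2 and 1 of LYVE1 lay in 1 nucleus, which held F13A1. The step from 1 to 2 UMIs therefore rests in part on that nucleus. The 4 markers reached 1574 CPM in the 4 nuclei with 3 UMIs and 4239 CPM in the 12 nuclei with at least 4 UMIs. Of the 20 marker UMIs in the 4 nuclei with 3 UMIs, 15 lay in 1 nucleus, which held F13A1, and the other 3 nuclei gave 485 CPM.

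Genes of microglia that the choice had not used were many times higher in the myeloid nuclei than in the other nuclei. CX3CR1, the fractalkine receptor, stood at 182, 270 and 266 CPM in the 3 barcode sets, with a pooled level of 237 CPM (208 to 270) against 1.29 CPM in other nuclei. CSF1R, the growth factor receptor of microglia, stood at 165, 146 and 201 CPM in the sets and at 169 CPM in the pool (144 to 197), against 1.92 CPM. P2RY12, the purine receptor used most often to mark microglia, stood at 234, 252 and 351 CPM in the sets and at 275.5 CPM in the pool (243 to 311), against 28.2 CPM. The level in each set lay far above the level in other nuclei for these 3 receptors. The log2 ratio was 7.53 for CX3CR1 (7.24 to 7.81), 6.46 for CSF1R (6.18 to 6.75) and 3.29 for P2RY12 (3.10 to 3.47). P2RY12 was also found in other nuclei, at 24.5 CPM in astrocytes, 28.7 CPM in excitatory and 25.9 CPM in inhibitory neurons picked by their own markers. A P2RY12 UMI was present in 48.7% of the myeloid nuclei (median 2013 UMIs), in 4.16% of the astrocytes (median 1796.5 UMIs) and in 20.8% of the excitatory neurons (median 8534 UMIs).

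A list of 30 genes of the microglial core had 27 members with enough counts to be measured, which required 20 UMIs on either side and an expected 10 on each. Of these, 25 were higher in the myeloid nuclei by at least 2-fold and 0 lower by as much, with a median log2 ratio of 4.17. Genes as low in other nuclei as CX3CR1 or CSF1R could be measured only if at least 2-fold higher in the myeloid nuclei. Counts of higher genes in this and the later lists follow in part from that limit. Over the 10320 measured genes, 19.1% lay at least 2-fold higher and 9.18% as far lower, and the median was 0.28. Besides the receptors, SLCO2B1, an organic anion transporter, had a log2 ratio of 6.92 (6.69 to 7.14) and ITGAM, the integrin CD11b, of 6.87 (6.54 to 7.19). TREM2, a lipid-sensing receptor, rested on 36 UMIs in 9.20% of the nuclei and had a log2 ratio of 5.96 (5.36 to 6.53). SALL1, a transcription factor of microglial identity, had 31 UMIs and a ratio of 2.97 (2.40 to 3.49). SYNDIG1 did not reach 2-fold, at 0.26 (0.07 to 0.45). The 3 genes that were not measured were TYROBP with 9 UMIs, TMEM119 with 7 and CSF3R with 3.

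**Figure D1:**
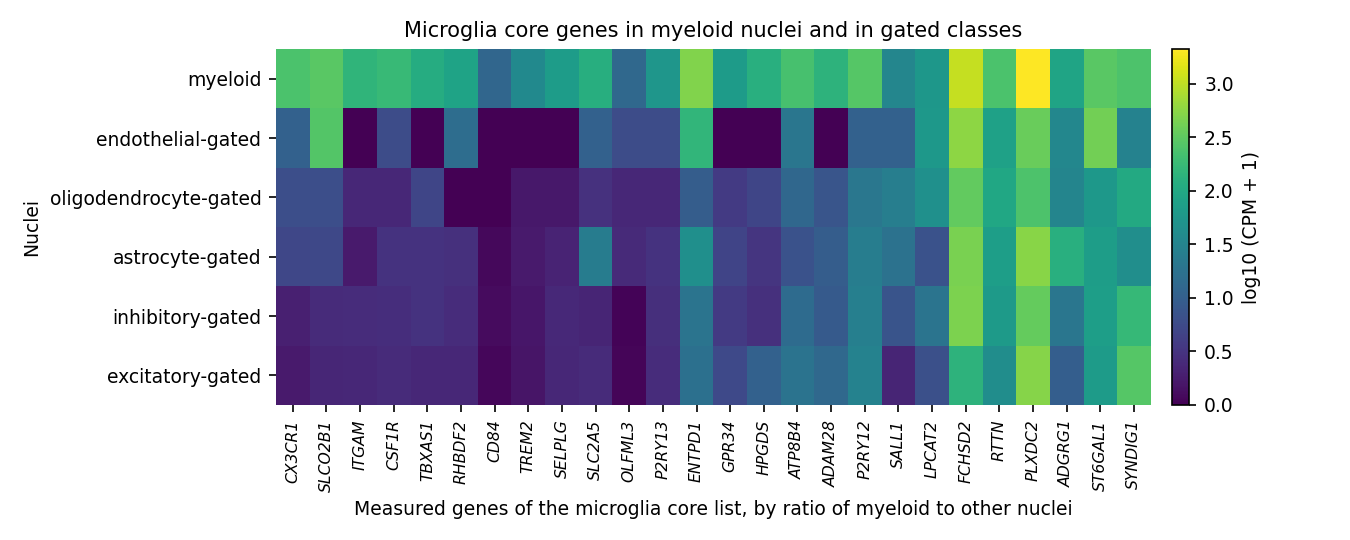
Levels of measured microglia core genes, as log10 of CPM plus 1, in the myeloid nuclei and in nuclei picked by markers of 5 other classes. The myeloid row is bright across the list, while PLXDC2 and FCHSD2 at the right are also bright in the other 5 rows, and SLCO2B1 and ST6GAL1 are bright in endothelial nuclei.

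Some genes of the list were also abundant elsewhere. SLCO2B1 stood at 294 CPM in the myeloid nuclei and at 271 CPM in endothelial nuclei picked by their own markers, whereas CSF1R stood at 4.84 CPM there. PLXDC2, a transmembrane receptor, had a UMI in 91.1% of the myeloid nuclei with a level of 2088 CPM (1998 to 2181). It was also at 540 CPM in astrocytes and 518 CPM in excitatory neurons, with a log2 ratio of 2.06 against all other nuclei (2.00 to 2.13). The heat map of core genes by class shows both patterns.

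Among all genes with a symbol, the 15 largest ratios that recurred in each barcode set included several genes of innate immunity. TLR4, the receptor for bacterial lipopolysaccharide, stood at 27.9 CPM against 0.101 CPM (log2 ratio 8.11, 7.15 to 9.13), and NCF4, a subunit of the phagocyte oxidase, at 36.1 CPM against 0.127 CPM (8.15, 7.30 to 9.04). SUSD3 had the largest ratio of these genes, 8.44 (7.63 to 9.31). BIN2, a membrane-bending protein of podosomes and phagocytosis, combined a high ratio with depth: 258 UMIs, a UMI in 46.9% of nuclei and a ratio of 7.94 (7.65 to 8.23). A2M, a broad protease inhibitor, stood at 301, 230 and 358 CPM in the sets and was seen in 49.0% of the nuclei (ratio 7.30, 7.06 to 7.55). The receptors PTAFR, for platelet-activating factor, LPAR5, for lysophosphatidic acid, and TNFRSF1B, for tumour necrosis factor, had ratios of 6.93, 7.23 and 6.96. The others were CYTH4 (7.83), SIRPB2 (7.79), PLAC8 (7.67), FGD2 (7.59) and MNDA (7.39), with CX3CR1 and SLCO2B1 given above.

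A list of border-associated macrophage genes had 23 measured members, of which 18 were at least 2-fold higher and 0 lower (median log2 ratio 3.93). STAB1 had a ratio of 6.59, the folate receptor gene FOLR2 of 6.48, DAB2 of 5.01 and LYVE1 of 4.51, whereas 4 members had values below 0: NRP1 at -0.34, CD36 at -0.52, SCN9A at -0.54 and IGF1 at -0.84. Their split by MRC1 and F13A1 is given further on.

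Immune receptors were higher as groups. Of the list of Fc receptors and immunoreceptor signalling, 23 of 23 measured members were at least 2-fold higher (median log2 ratio 4.73), among them the high-affinity Fc receptor FCGR1A at 6.59 and the shared signalling chain FCER1G at 6.27. Of the toll-like receptors and innate sensors, 24 were in the table and 11 were measured. All 11 were at least 2-fold higher (median 5.03), with TLR1 at 6.01 and NLRP3, the inflammasome sensor, at 5.81. Genes as low in other nuclei as TLR4 could be measured only if at least 2-fold higher in the myeloid nuclei. That limit fixed part of this count. Summed over the 24 genes, the list stood at 528 CPM against 56.2 CPM in the other nuclei. In endothelial nuclei picked by their own markers it stood at 441 CPM (354 to 526 over the barcode sets), so the sum was not particular to the myeloid nuclei. TLR7 rested on 10 UMIs and was at 0 in the first barcode set. Of the complement list, 8 of 11 were at least 2-fold higher (median 3.98): C1QC at 5.90, C1QB at 5.77, the central component C3 at 5.76 and its receptor C3AR1 at 5.55. The complement list summed to 706 CPM in the myeloid nuclei, 204 CPM in the other nuclei and 441 CPM in nuclei picked as endothelial. Of the chemokine list 2 of 3 measured genes were at least 2-fold higher, among them CMKLR1, the chemerin receptor, with 125 UMIs and a ratio of 6.10 (5.79 to 6.41).

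Of 24 measured myeloid transcription factors, 17 were at least 2-fold higher and 0 lower by as much (median log2 ratio 1.68). This list summed to 5426 CPM in the myeloid nuclei and 2705 CPM in the other nuclei, but to 7283 CPM in nuclei picked as endothelial. FLI1 stood at 369 CPM (332 to 410) with a ratio of 6.13, IRF8, required for microglial development, at 68.1 CPM with 5.59, and RUNX1 at 153 CPM with 5.36. SPI1, the master regulator of the myeloid lineage, had 55 UMIs in the myeloid nuclei, where 1 UMI equals 1.03 CPM, and stood at 18.5 CPM in the other nuclei. Of 19 cytokine and cytokine receptor genes, 14 were at least 2-fold higher and 1 lower by as much. The cytokine list summed to 1707 CPM in the myeloid nuclei, 568 CPM in the other nuclei and 2048 CPM in nuclei picked as endothelial. TGFB1, whose product maintains microglia, stood at 266, 376 and 307 CPM in the sets, with a ratio of 3.93 (3.75 to 4.10). Of 10 measured genes of the steroid response list, 4 were at least 2-fold higher and 3 lower by as much, and the list summed to 1361 CPM against 1992 CPM. The glucocorticoid receptor gene NR3C1 stood at 291 CPM (258 to 327) against 79.98 CPM, a ratio of 1.86 (1.69 to 2.03), while HSD11B1, which regenerates active glucocorticoid, was lower, at -1.49 (-2.62 to -0.57). Of the list of eicosanoid and purine signalling, 12 of 15 measured genes were at least 2-fold higher and 0 lower (median 4.05), among them ALOX5 at 5.11, PLA2G4A at 4.97 and TBXAS1, the thromboxane synthase, at 6.11. The other 3, P2RX7, P2RX4 and LTA4H, stood at 0.40, 0.38 and -0.07. Of the antigen presentation list, 10 of 20 genes were in the table and 6 were measured. CD86, a co-stimulatory molecule, had a ratio of 6.15 (5.61 to 6.66), and CD74, the invariant chain, had 10 UMIs.

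Lists of lymphocytes and blood monocytes gave mixed values. Of 15 genes of T and NK cells, 3 had 0 UMIs and 4 were measured, of which 2 were at least 2-fold higher and 1 lower. CD3E, CD8A and GZMA of T and NK cells had 0 UMIs in the 337 nuclei, CD2 had 1, CD247 had 3 and THEMIS had 6. CD4, which macrophages also carry, was among the higher ones, at 111 CPM. At least 3 UMIs over 6 lymphocyte genes were found in 2 nuclei (0.593%), both MRC1/F13A1-negative. Of 10 B cell genes 5 had 0 UMIs, CD79A among them, and MS4A1 had 1, but EBF1 was at least 2-fold higher, at 2.85 (2.58 to 3.10), and brought the list to 160 CPM against 48.7 CPM. EBF1 is also a gene of endothelial nuclei here, where it stood at 1429 CPM, and its ratio turned to -0.88 against classes weighted equally. Of 9 genes of monocytes, neutrophils and dendritic cells 2 had 0 UMIs and LYZ had 6. Of the 3 measured ones VCAN was at least 2-fold higher, at 1.26 (1.00 to 1.51), but stood at -1.05 without nuclei with glial or vascular markers. The list summed to 231 CPM against 134 CPM. None of the 12 genes of the cell cycle list was measured, and MKI67, the proliferation marker, stood at 4.13 CPM.

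Transcripts of other brain cells were abundant in the summed counts of the myeloid nuclei. The median myeloid nucleus held 6 UMIs of the astrocyte list and 3 of the oligodendrocyte list, against 21 and 4 in the deeper other nuclei. SLC1A3, an astrocyte glutamate transporter, stood at 1354 CPM (1281 to 1429) against 250.1 CPM in the other nuclei, and MBP, a myelin protein, at 1282 CPM (1211 to 1355) against 158 CPM. With at least 4 UMIs of a class's marker genes as the limit, 137 nuclei (40.7%) carried astrocyte markers, 61 (18.1%) oligodendrocyte markers and 17 (5.04%) endothelial markers. In the 10191 other nuclei that passed the neuronal exclusions these shares were 44.4, 7.43 and 1.06%. Those nuclei include glial and endothelial nuclei themselves, so their shares do not measure stray transcripts. Astrocyte, oligodendrocyte, endothelial or precursor markers were carried by 189 myeloid nuclei (56.1%, 50.6 to 61.5%). The precursor markers, in 119 myeloid nuclei and 30.1% of the 10191, are not specific, since PTPRZ1 is also an astrocyte gene. The doublet scores named 22 nuclei (6.53%) as presumed doublets, of which 21 were MRC1/F13A1-negative, 1 had 1 UMI and 0 were positive. With 31 positive nuclei, a count of 0 allows a share of up to 9.68% if 3 counts are taken as the limit, and up to 11.2% by the exact interval.

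The 148 nuclei that carried none of these markers were chosen by having few glial and vascular UMIs, which favours shallow nuclei, so a lower glial and a higher microglial share in them follow in part from the choice and are given as a description. Their median was 1111 UMIs, and the microglia core list summed to 13535 CPM in them against 6817 CPM in all 337 and 1226 CPM in other nuclei. The astrocyte list stood at 3888 CPM against 10123 CPM, and at 4769 CPM in the other nuclei and 22965 CPM in nuclei picked as astrocytes. The oligodendrocyte list stood at 1219 CPM against 3475 CPM. P2RY12 stood at 566 CPM in these nuclei, CX3CR1 at 533 CPM and CSF1R at 346 CPM, in each case more than in the whole group. The neuronal list stood at 6507 against 7145 CPM, and at 21105 CPM in the other nuclei. The bar chart of marker lists shows these sums, and the part of these transcripts in the results was not tested beyond the values given.

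**Figure D2:**
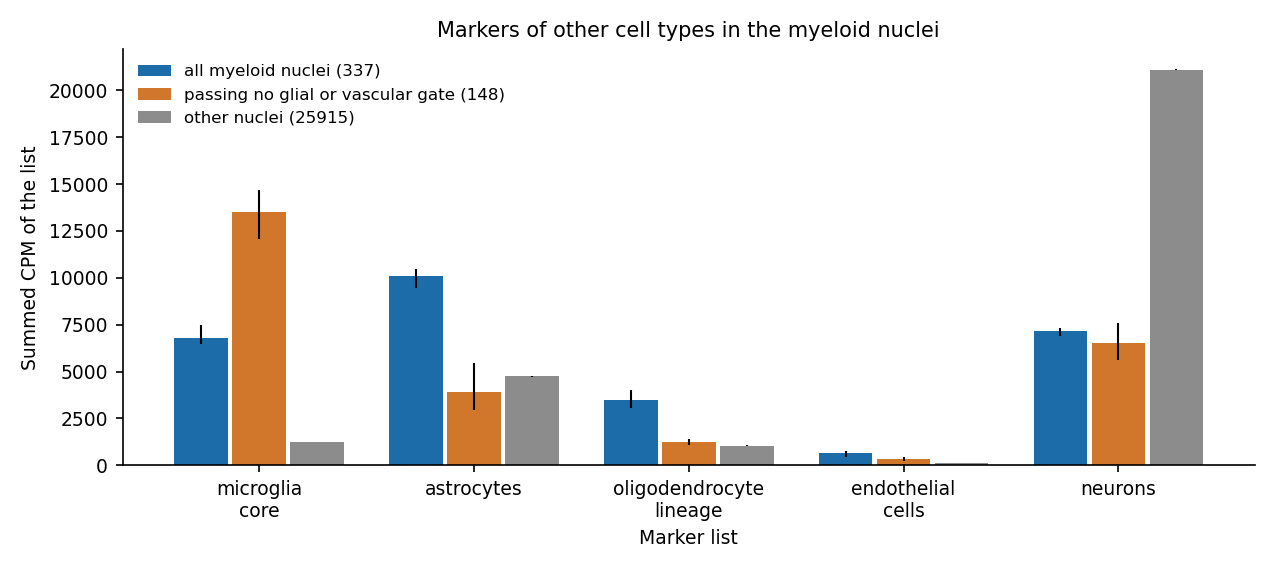
Summed CPM of 5 marker lists in all 337 myeloid nuclei, in the 148 that passed no glial or vascular gate, and in the 25915 other nuclei; bars are pooled levels and black lines span the 3 barcode sets. The microglia core sum is 13535 CPM in the 148 nuclei and 6817 CPM in all, while the astrocyte sum goes the other way, 3888 and 10123 CPM.

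In the 17 myeloid nuclei with endothelial markers the core list summed to 3930 CPM, between the 6817 CPM of all myeloid nuclei and the 2073 CPM of nuclei picked as endothelial. The macrophage list summed to 3434 CPM and the list of toll-like receptors and innate sensors to 715 CPM, against 2396 and 528 CPM in all myeloid nuclei. Without the 1 nucleus of the 17 that held F13A1, the 3 sums were 2495, 1138 and 394 CPM. INPP5D gave 76 of their 97 rule UMIs, and 14 of the 17 held a UMI of a single gene of the 7. FLT1, an endothelial growth factor receptor, stood at 2203 CPM in them, near the 2823 CPM of nuclei picked as endothelial, CSF1R had 0 UMIs, and PLXDC2 was seen in 23.5%. In nuclei picked as endothelial, INPP5D itself stood at 368 CPM with a UMI in 52.2%. Of these 17 nuclei, 15 were MRC1/F13A1-negative, 1 was positive and 1 had 1 UMI. Of the 17, 2 held at least 3 of the 7 rule genes. The 14 with a single rule gene had a core list sum of 2388 CPM and an endothelial list sum of 11261 CPM, so the name microglia and macrophages is not borne out by these markers for those 14.

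The comparison of MRC1/F13A1-positive with negative nuclei asked which genes go with MRC1 and F13A1. Positive nuclei had a median of 2898 UMIs and negative nuclei of 1901, and a limit of 2 UMIs is more easily passed by deeper nuclei. They held 96010 and 691620 UMIs, so 1 UMI in the positive group equals 10.4 CPM. Of a list of 30 genes of border-associated macrophages, without MRC1 and F13A1, 27 were in the table and 17 were measured (10 UMIs on either side, an expected 5 on each). Of these 17, 16 were higher in the positive nuclei by at least 2-fold and 0 lower by as much, with a median log2 ratio of 2.59. The demand for 5 expected UMIs fixed part of this count in advance. Genes as low in the negative nuclei as COLEC12, LYVE1 or CD163 were measured only if at least 2-fold higher in the positive nuclei. The count is therefore given as a description, and the same limit bears on the other lists and on all measured genes. Over the 5224 measured genes, 10.2% lay at least 2-fold higher and 8.71% as far lower, with a median of 0.08. With the added demand that the interval exclude equal levels, the background was 6.09 and 3.79%, and 16 of the 17 list genes remained.

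The list holds scavenger receptors, other surface and endocytic proteins, transcription factors and secreted proteins. DAB2, an endocytic adaptor, stood at 1520, 1260 and 1404 CPM in the positive nuclei of the 3 sets and at 90.5, 87.7 and 129 CPM in the negative nuclei. Its pooled levels were 1396 CPM (1169 to 1653) and 101 CPM (78.9 to 128), a log2 ratio of 3.79 (3.36 to 4.22). The positive level of each set lay above the negative level of all 3 sets. COLEC12, a scavenger receptor, was at 240 CPM against 2.89 CPM, with 23 UMIs against 2 and a ratio of 6.37 (4.36 to 9.50). LYVE1, the hyaluronan receptor of perivascular macrophages, had a ratio of 4.43 (3.15 to 5.91), the haemoglobin scavenger receptor CD163 of 2.35 (1.15 to 3.50) and its relative CD163L1 of 3.85 (2.32 to 5.55). STAB1, also a scavenger receptor, stood at 500 CPM against 197 CPM, a ratio of 1.35 (0.84 to 1.83). MS4A4A had 10 UMIs against 0 and was at least 24-fold higher, taking 3 UMIs over the negative group as its upper limit.

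RBPJ, the nuclear effector of Notch signalling, stood at 1844, 2310 and 4326 CPM in the positive nuclei and at 214, 259 and 234 CPM in the negative nuclei of the sets. The pooled log2 ratio was 3.40 (3.11 to 3.70). MAF, a factor of tissue macrophages, had a ratio of 1.51 (0.71 to 2.27). SELENOP, a selenium carrier, was at 208 CPM against 21.7 CPM (3.26, 2.22 to 4.33), and IGF1, a growth factor, had 10 UMIs and a ratio of 2.59 (1.22 to 3.92). NRP1, a co-receptor for semaphorins and VEGF, stood at 1114 CPM against 401 CPM (1.48, 1.14 to 1.80). PDGFC, a secreted growth factor, was the measured list gene under 2-fold, at 0.82 (0.17 to 1.43). With the nucleus that held most of its UMIs left out for each gene, 16 of the 17 were still at least 2-fold higher.

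**Figure D3:**
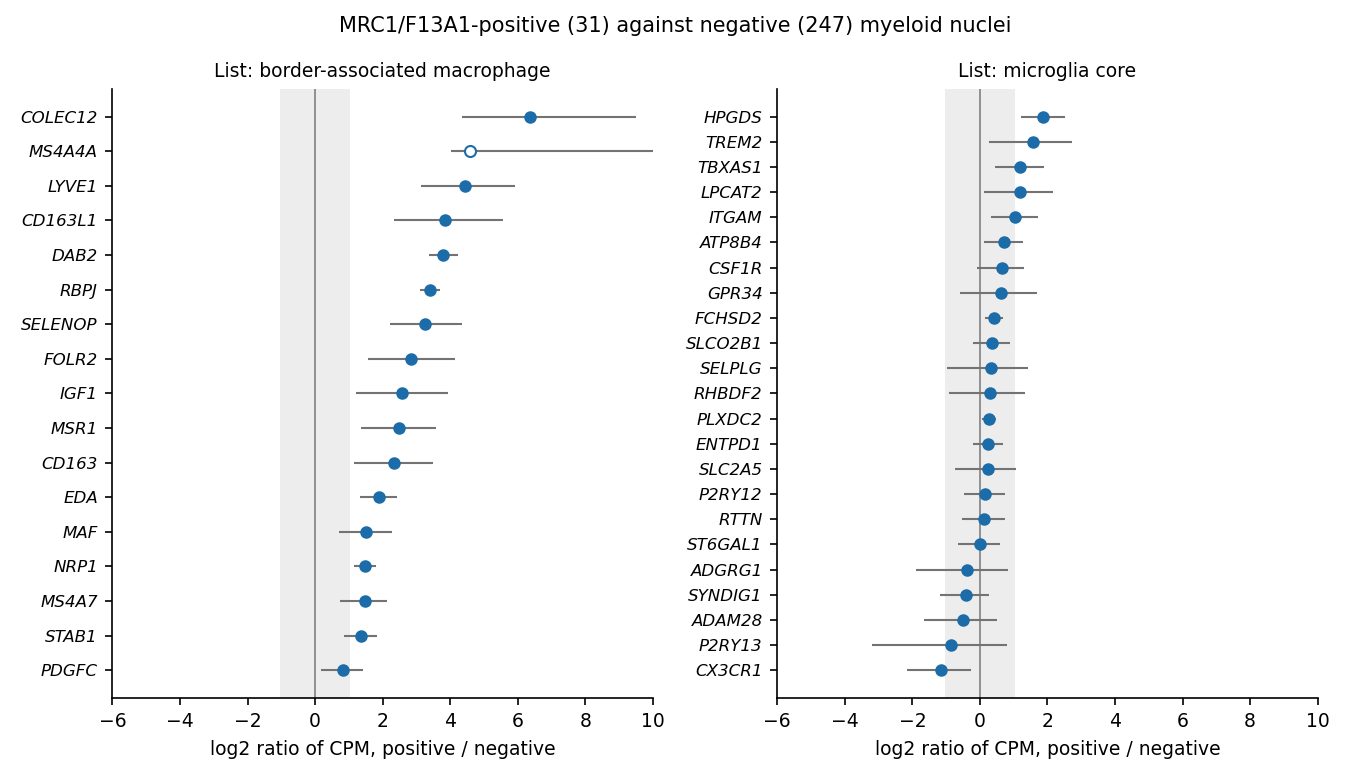
Log2 ratio of CPM between the 31 MRC1/F13A1-positive and the 247 negative myeloid nuclei for measured genes of 2 lists, with exact 95% intervals of counting error; the grey band spans ratios under 2-fold, and an open point is a lower bound from a count of 0. In the left panel 16 of 17 genes lie at or beyond 2-fold to the right, and in the right panel the points scatter about 0, with HPGDS highest at 1.87 and CX3CR1 lowest at -1.14.

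Microglial core genes were found in both groups. Of 23 measured genes of that list 5 were higher in the positive nuclei by at least 2-fold and 1 lower by as much, with a median log2 ratio of 0.29. Of the 5 higher genes, 4 were higher in each barcode set. P2RY12 stood at 449, 26.3 and 562 CPM in the positive nuclei of the sets and at 189, 280 and 354 CPM in the negative nuclei, so the groups overlapped (pooled ratio 0.16, -0.46 to 0.73). CX3CR1 was the lower gene, at 24.9, 184 and 169 CPM against 197, 280 and 287 CPM, a pooled ratio of -1.14 (-2.17 to -0.27). HPGDS, the haematopoietic prostaglandin D synthase, had a ratio of 1.87 (1.21 to 2.51), TREM2 of 1.56 (0.26 to 2.74), TBXAS1 of 1.20 (0.44 to 1.91), LPCAT2, a phospholipid remodelling enzyme, of 1.19 (0.11 to 2.15) and ITGAM of 1.04 (0.32 to 1.71). Among the myeloid nuclei without glial or vascular markers, the median of the core list was -0.52 and the ratio of CX3CR1 was -2.87. In the same nuclei DAB2 stood at 4.07 and RBPJ at 4.18, while STAB1 and MAF fell short of 2-fold, at 0.70 and 0.92. TREM2 stood at 0.96 without the nuclei that carried endothelial markers. Of 32 named genes that passed 2-fold and were still measured without glial or vascular markers, 23 passed it in the same direction.

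Outside the list, the largest ratios that recurred in each set were those of SPP1, the secreted glycoprotein osteopontin (5.31, 4.41 to 6.33), CD14, the lipopolysaccharide co-receptor (4.35, 2.94 to 5.98), SRGN, a proteoglycan of secretory granules (4.29, 3.37 to 5.29), and the complement chain C1QB (4.07, 2.88 to 5.38), with 11 of its UMIs in 1 nucleus. The low-affinity Fc receptor FCGR2A followed at 3.95 (2.57 to 5.48) and FCER1G at 3.71 (2.58 to 4.92). RGS1, a brake on G protein signalling, had 13 UMIs against 0 and was at least 31.2-fold higher. Of the Fc and immunoreceptor list, 7 of 19 measured genes were at least 2-fold higher and 0 lower (median 0.83), of lipid handling and phagocytosis 8 of 18 and 0 (0.56), and of the myeloid transcription factors 4 of 18 and 0 (0.51). Of the higher genes of these 3 lists, 7, 5 and 4 were higher in each barcode set. CTSB, a lysosomal protease, stood at 312 CPM against 53.5 CPM (2.55, 1.80 to 3.28), and MITF, a factor of lysosomal and osteoclast genes, at 365 CPM against 91.1 CPM (2.00, 1.36 to 2.62). FTH1, the heavy chain of ferritin, had a ratio of 2.70 (1.73 to 3.67). CSF2RA, the receptor chain for GM-CSF, had 2.10 (1.32 to 2.85). Of the cytokine list 2 of 14 genes were at least 2-fold higher and 2 lower, near the 10.2 and 8.71% of all measured genes. Of the complement list 4 of 7 were at least 2-fold higher and 1 lower, and for 2 of the 4 the interval excluded equal levels. Likewise 2 of the 4 were higher in each barcode set.

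Among genes with at least 1 UMI in the positive nuclei, the lowest included several of endothelial cells. The 24 measured genes with 0 UMIs there were entered at 3 UMIs and may lie lower than the ratios ranked here. EBF1 had 1 UMI against 127 (-4.14, -9.45 to -1.64), GRK5 1 against 88 (-3.61, -8.93 to -1.10), MECOM 2 against 167 (-3.53, -6.59 to -1.66) and EPAS1, a hypoxia factor abundant in endothelium, 1 against 81 (-3.49, -8.81 to -0.97). EBF1 stood at 1429 CPM and MECOM at 4780 CPM in nuclei picked as endothelial. Of the endothelial list 0 of 7 measured genes were higher by at least 2-fold and 4 lower by as much, 3 of them with an interval that excluded equal levels. FLT1 had 0 UMIs against 114, at least 5.28-fold lower. The negative group held 15 of the 17 nuclei with endothelial markers. Without these 17, the ratio of EBF1 was -2.59 and that of GRK5 -3.16, and without every nucleus that carried glial or vascular markers that of EBF1 was -0.82. SLIT3 (-3.38), CELF5 (-3.13), HMCN1 (-3.11), PRDM10 (-3.08), ALK (-3.06), JAM2 (-2.98), DCBLD2 (-2.91) and AMPH (-2.88) completed these genes, each with 1 UMI in the positive group.

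The 31 positive nuclei were divided further by F13A1, a division made after the values were seen. In 12 nuclei F13A1, the transglutaminase subunit of factor XIII, had from 2 to 51 UMIs with a median of 8. In the other 19 F13A1 was at 0 and MRC1, the mannose receptor, had 2 to 4 UMIs. No positive nucleus had exactly 1 UMI of F13A1. The F13A1-positive nuclei numbered 6, 4 and 2 in the sets and made up 3.56% of the myeloid nuclei (1.85 to 6.14%), and the MRC1-only nuclei numbered 7, 7 and 5. MRC1 was at 624 CPM in the former and 782 CPM in the latter, with 24 and 45 UMIs. F13A1 was also found outside the myeloid nuclei, at 18.5 CPM in excitatory neurons, with a UMI in 11.5% of them, and at 1.12 CPM in astrocytes, with a UMI in 0.208%.

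**Figure D4:**
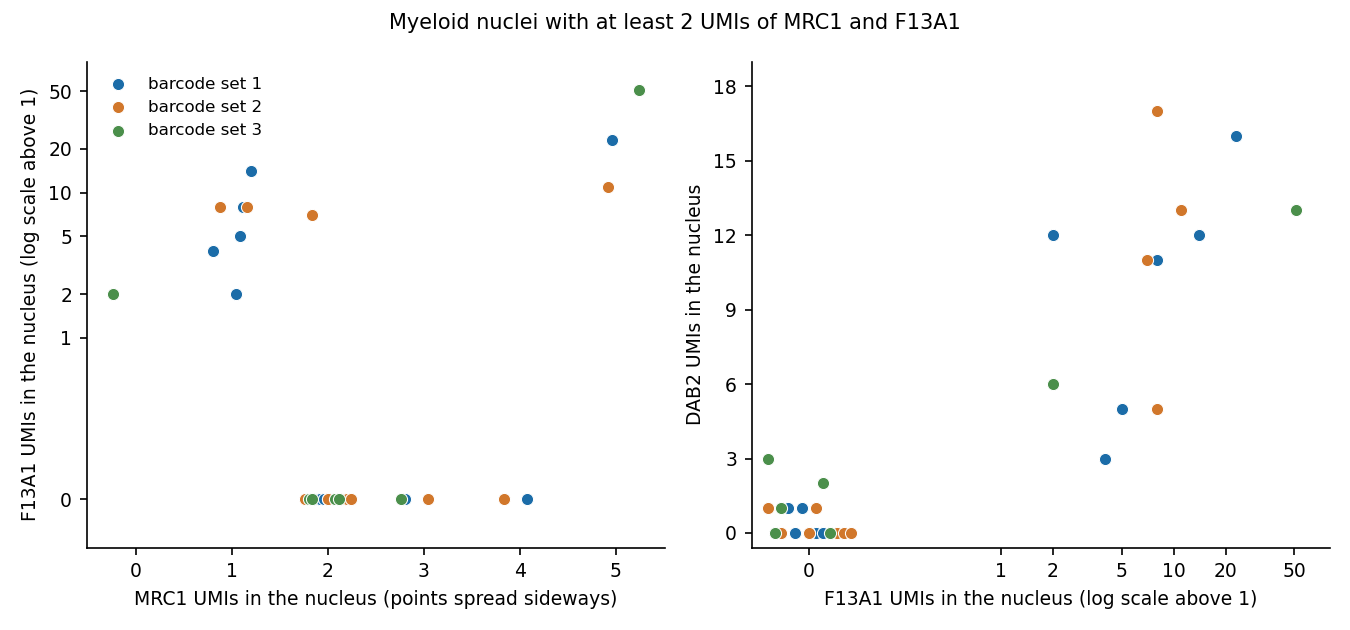
Each point is 1 of the 31 MRC1/F13A1-positive nuclei, coloured by barcode set; the left panel plots F13A1 against MRC1 and the right panel DAB2 against F13A1, in UMIs per nucleus, with points at whole-number values spread sideways on the left and at F13A1 of 0 on the right. The 19 nuclei at F13A1 of 0 have 0 to 3 UMIs of DAB2, and the 12 with F13A1 have 3 to 17.

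DAB2 differed between the 2 kinds nucleus by nucleus. All 12 F13A1-positive nuclei held DAB2, with 3 to 17 UMIs and a median of 11.5. Of the 19 MRC1-only nuclei 7 held it, with at most 3 UMIs, and of the 247 negative nuclei 60 held it, with at most 2. RBPJ had a median of 13.5 UMIs and a highest count of 46 in the F13A1-positive nuclei, a median of 1 in the MRC1-only nuclei and of 0 in the negative nuclei. Yet 2 of the 12 F13A1-positive nuclei lacked RBPJ, and 1 of the MRC1-only nuclei held 16 UMIs of it together with DAB2, COLEC12 and STAB1. COLEC12 was present in 8 of 12, 1 of 19 and 2 of 247 nuclei, CD163 in 9, 0 and 16, and LYVE1 in 7, 1 and 6. With each nucleus thinned to 500 UMIs, which left out 1 negative nucleus, DAB2 was seen in 66.7% of the F13A1-positive, 15.8% of the MRC1-only and 9.35% of the negative nuclei. RBPJ was then seen in 10 of 12, 3 of 19 and 27 of 246 nuclei, and CX3CR1 in 0, 2 and 46 of them.

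Against the negative nuclei, the F13A1-positive nuclei had 17 of 17 measured macrophage list genes at least 2-fold higher, with a median log2 ratio of 3.58. The demand for a minimum of expected UMIs fixed part of this count in advance. COLEC12, LYVE1, CD163 and genes as low in the negative nuclei were measured only if at least 2-fold higher in the F13A1-positive nuclei. Count and median are therefore given as a description, and the same demand bears on the other comparisons with the negative nuclei. Of the 2437 genes measured in this smaller comparison, 21.6% were at least 2-fold higher and 18.6% lower. The levels were 3222 CPM for DAB2 (2680 to 3842), 5171 CPM for RBPJ (4477 to 5941), 754 CPM for STAB1 (505 to 1082) and 572 CPM for COLEC12 (358 to 865). Of the microglia core list 6 of 17 were at least 2-fold higher and 2 lower, with HPGDS at 2.83 (2.10 to 3.52) and TREM2 at 2.52 (1.04 to 3.79). CX3CR1 gave 1 UMI in the 12 nuclei, 26.0 CPM against 253 CPM, a ratio of -3.28 (-8.60 to -0.79). The MRC1-only nuclei had 3 of 9 measured macrophage genes at least 2-fold higher, with a median of 0.75, where 9.51% of 3586 genes were at least 2-fold higher and 6.72% lower. The 3 genes were MSR1 (2.00), RBPJ (1.56) and MS4A7 (1.09), and 0 of them stayed at 2-fold without the nucleus that held most of their UMIs. For RBPJ, 16 of 40 UMIs lay in 1 nucleus, and without it the level was 430 CPM and the ratio 0.87. MSR1, with 4 of 6 UMIs in 1 nucleus, then stood at 0.46 and MS4A7 at 0.77. In the F13A1-positive nuclei 17 of 17 genes stayed at 2-fold in the same way. CX3CR1 stood at 174 CPM in these nuclei and a UMI of it was seen in 7 of 19. The 2 comparisons share their negative nuclei, so their values are set side by side and no test joins them.

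**Figure D5:**
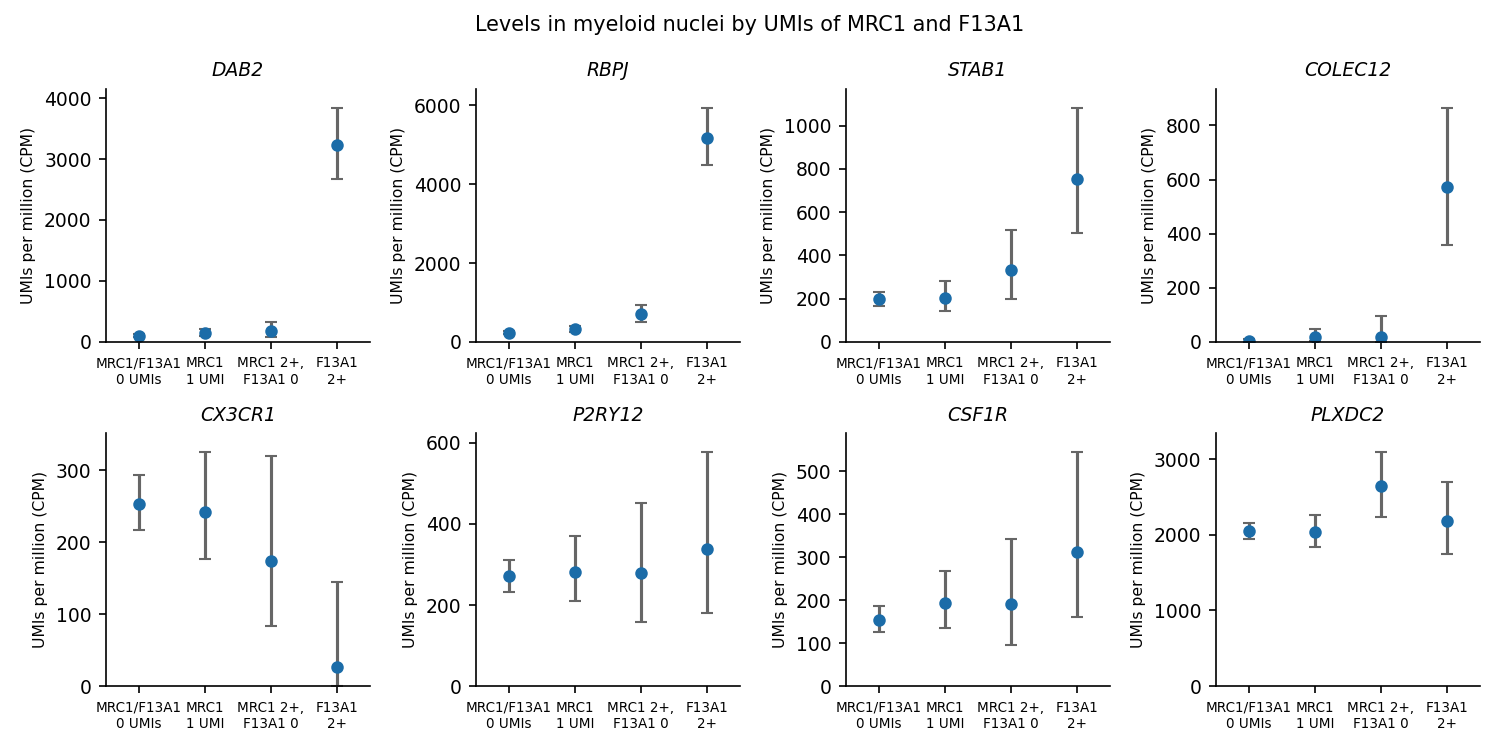
Pooled CPM of 8 genes, with exact 95% intervals of counting error, in myeloid nuclei with 0 UMIs of MRC1 and F13A1 (247), with 1 UMI of MRC1 (59), with at least 2 UMIs of MRC1 and 0 of F13A1 (19), and with at least 2 UMIs of F13A1 (12). DAB2, RBPJ and COLEC12 are highest in the last group, where CX3CR1 is lowest, and the intervals of P2RY12 overlap in the 4 groups.

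P2RY12 and PLXDC2 in the F13A1-positive nuclei were concentrated in few of them. P2RY12 was at 338 CPM in the pool of 12, but 12 of its 13 UMIs lay in 3 nuclei, and 8 of the 12 held 0. PLXDC2 was at 2183 CPM, with 70 of its 84 UMIs in 3 nuclei and a median of 2 UMIs. In the MRC1-only nuclei PLXDC2 was present in 19 of 19, with 2 to 14 UMIs and a median of 7, and in the negative nuclei in 224 of 247 with a median of 5. For SPP1, 62 of its 64 UMIs in the F13A1-positive nuclei lay in 3 of them, 1 nucleus in each barcode set. The nucleus of the third set held 51 of the 143 UMIs of F13A1 and was the 1 F13A1-positive nucleus that carried endothelial markers. RGS1 and MS4A4A were each found in 5 of the 12 nuclei, with 13 and 10 UMIs, and had 0 UMIs in the MRC1-only and the negative nuclei. Astrocyte markers were carried by 2 of the 12 against 10 of 19 MRC1-only nuclei. The astrocyte list summed to 9250 CPM in the F13A1-positive, 11108 CPM in the MRC1-only and 9735 CPM in the negative nuclei, and the oligodendrocyte list to 987, 4050 and 3642 CPM. Over the barcode sets the astrocyte sum of the F13A1-positive nuclei ranged from 1495 to 15152 CPM. The median nucleus held 5.5 UMIs of the astrocyte list in the F13A1-positive, 10 in the MRC1-only and 6 in the negative group.

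In nuclei with 1 UMI of MRC1, 2 of 12 measured macrophage genes were at least 2-fold higher and 0 lower, with a median log2 ratio of 0.37, where 3.74% of 7271 genes were at least 2-fold higher and 5.98% lower. The 2 were TIMD4 (1.42) and MAF (1.01), and MAF stood at 0.86 without the nucleus with most of its UMIs. Of the endothelial list 6 of 8 measured genes were at least 2-fold lower than in the negative nuclei, each with an interval that excluded equal levels (median -1.99). That list summed to 182 CPM against 817 CPM, and endothelial markers were carried by 1 of the 59 and 15 of the 247 nuclei. The macrophage list summed to 1637 CPM in the negative nuclei, 2154 CPM in those with 1 UMI, 2590 CPM in the MRC1-only and 16890 CPM in the F13A1-positive nuclei. Over the barcode sets the first 3 sums ranged from 1516 to 1842, 1682 to 2852 and 1929 to 6196 CPM, so they overlapped. Within the 59 nuclei, 11 of the 25 UMIs of DAB2 and 17 of the 58 UMIs of RBPJ lay in 1 nucleus for each gene. Without that nucleus, DAB2 stood at 77.8 CPM and RBPJ at 228 CPM. CX3CR1 stood at 242 CPM in the 59 nuclei, within the interval of the negative nuclei. In the plot of levels by group, DAB2 stood at 101, 138 and 174 CPM in the first 3 groups and RBPJ at 236, 320 and 695 CPM, far below the 3222 and 5171 CPM of the F13A1-positive nuclei.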

How the data were processed

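Nuclei of macaque amygdala were measured as 1 deposited table of raw UMI counts per gene and nucleus. Reads were handled with fastp and Cell Ranger 3.0.0 against GRCh38, per the submitters' processing notes, while 5142 rows carry macaque Ensembl identifiers. The annotation is not given in the sources used here. The macaque reference named 800 of those rows, and 376 of 429 list genes were in the table. Total counts, medians and intervals stand in the text.

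Counts were summed per group and scaled to 1000000 UMIs (CPM). The Poisson, binomial and ratio intervals are exact at 95%, and a count of 0 was set to 3 counts over the group. With 1 pool there was no test, and a gene was called at 2-fold. Barcode sets only showed recurrence. Nuclei of other classes had at least 4 UMIs of that class's markers and met no other gate. Because inhibitory neurons carry RBFOX3, nuclei with at least 4 UMIs of GAD1 and GAD2 counted as inhibitory and only the others with RBFOX3 as excitatory. Presumed doublets were the highest Scrublet scores at 0.8% per 1000 nuclei (1862 in all), and they were kept in the main values. The steps were checked on simulated data.

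Named genes were the 15 largest ratios against other nuclei, the 12 highest and 12 lowest against MRC1/F13A1-negative nuclei, in each case with 1 direction in 3 barcode sets, plus list members. The text prints a selection of these list members, and adds marker and example genes chosen after their values were seen. Some list members counted in the totals are not reported here by name or drawn. The members and the 23 lists were chosen with earlier results of these data known. Alternatives left out doublets, barcode sets, lymphoid, endothelial or glial nuclei, moved the limits, thinned nuclei to 500 UMIs, weighted nuclei or classes equally and, chosen after seeing the data, left out the nucleus with most UMIs of a gene. Python 3.11.15, numpy 2.4.6, pandas 2.3.3, scipy 1.17.1, scanpy 1.11.5 and matplotlib 3.10.9 were used.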

Additional observations from a re-analysis of the deposited data

How the results depend on the processing

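The 2-fold calls depended on depth and on the limits. Against negative nuclei, 535 of 5224 measured genes were at least 2-fold higher and 455 lower. Of these, 349 and 388 had the same direction in 3 barcode sets. With 3 UMIs as the minimum, 3158 of 12245 measured genes were higher and 1072 lower, and with 50 UMIs 108 of 3381 were higher. After thinning, 184 of 915 were higher and 81 lower. Without nuclei with glial or vascular markers (chosen after seeing the data), 288 of 1574 were higher and 200 lower. With at least 1 UMI of MRC1 and F13A1, 228 of 8450 were higher. In the MRC1-only nuclei, a division chosen after seeing the data, 341 of 3586 were higher and 241 lower. The number of measured genes changed with the setting, so a lower count need not be a lower share. The median log2 ratio of the macrophage list, 2.59, was 3.58 with F13A1 of at least 2, 0.75 in the MRC1-only nuclei, 1.44 and 3.44 with at least 1 and 3 UMIs of MRC1 and F13A1, 1.88 and 1.49 with minima of 3 and 50 UMIs, 1.99 after thinning, and 1.82 to 2.31 with a barcode set left out, lowest without the first. The core list median of 0.29 was -0.52 without nuclei with glial or vascular markers. CELF5 turned to 0.15 with at least 1 UMI, and NRP1 to -0.067 in the MRC1-only nuclei.

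Against other nuclei, 1967 of 10320 measured genes were higher and 947 lower. With 3 UMIs 7828 of 19626 were higher. After thinning, 803 of 4666 were higher and 558 lower, and against classes weighted equally 428 of 5052 were higher and 415 lower. The macrophage list median of 3.93 was 1.79 against equal classes, 4.65 after thinning and 5.44 without glial or vascular markers, where the core median was 5.36. Against equal classes, which include endothelial nuclei, EBF1 turned to -0.88, FLT1 to -1.98, MECOM to -2.20, OPALIN to -0.044 and PECAM1 to -0.80. VCAN turned to -1.05 without glial or vascular markers and to -0.90 after thinning. The myeloid share of 1.28% was 0.989% without any RBFOX3, GAD1 or GAD2 UMI and 1.03% with a limit of 6 UMIs. Fewer genes or nuclei enter several of these settings, and beyond that the cause was not tested. No paired analysis was possible because the barcode sets carry no sample label.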
